A study of Mus musculus with 18 samples.

Results

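The genes described here are 42 genes of the cell cycle, 20 that act in DNA replication and 22 that act in mitosis, of 55494 genes in the RNA matrix. They were chosen by name: the replication genes around the Mcm helicase, Pcna and the Rrm subunits, and the mitosis genes around cyclin B, Cdk1 and the spindle. All 42 were found and had UMIs (unique molecular identifiers, 1 per captured RNA molecule), 11712 for the replication genes and 7829 for the mitosis genes. They were followed per cell, per mouse and by surface CD4 and CD8A in thymocytes of bone marrow chimeras that carried the transgenic T cell receptor OT2, which recognises an ovalbumin peptide on MHC class II, or OT1, which recognises one on MHC class I. All mice were females of 14 weeks, studied 6 weeks after a transplant in which 30% of the marrow carried the receptor (CD45.1.2) and 70% was B6 CD45.1 competitor.

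There were 6 mice, 1 for each receptor and host, each with an RNA, an antibody and a receptor library; the receptor libraries were not analysed here. NegSelected hosts were RIPmOVA, which carry an ovalbumin transgene under an insulin promoter. PosSelected hosts were wild-type C57BL6/Ncr. By the treatment label, the NoSelection host was an MHC class II KO for OT2 cells and a B2m KO for OT1 cells. Both NoSelection hosts are labelled B6.Ly5.1/Ncr. A comment on the OT2 mouse names b2m instead of MHC class II. Sorted cells were CD44lo CD45.1.2+ Va2+ Vb5+, marked with hashtags per mouse and run in 1 lane. The sort removes competitor cells, but not cells of other T lineages that bear the transgenic receptor.

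The files held 1331 cells: 177, 254 and 108 from the OT2 NegSelected, PosSelected and NoSelection mice and 204, 282 and 306 from the OT1 mice in the same order of hosts. RNA UMIs per mouse ran from 525843 to 1867488, and 0 barcodes were shared between mice. The median RNA UMIs per cell were 2756 to 3022 in OT2 mice and 4733 to 5385 in OT1 mice. Shares of cells are therefore given after each cell was thinned to 1500 UMIs. Markers of B cells summed to at most 11.3 CPM (the usual depth-scaled unit, from UMIs of a gene relative to all RNA UMIs of the same cells) in a mouse, myeloid markers to at most 89.4 CPM and thymic epithelial markers to at most 36.1 CPM, with Foxn1 and Krt5 at 0.

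Cells that enter the cycle switch on the replication genes first, under E2F transcription factors at the border of G1 and S phase. The mitosis genes follow in G2 and M phase, under the MuvB, B-Myb and FoxM1 complex, which acts through CHR and CCAAT elements. In the thymus, division is concentrated in double-negative cells that have passed beta selection and in the immature CD8 single-positive cells that come after them. Most CD4+CD8+ cells and newly selected single-positive cells are out of cycle.

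Words that match these programmes were found in some of the promoters. RefSeq promoters of 37 members (GRCm38.p6, 250 bases before the start to 50 after it) were searched on both strands for the E2F words TTTCCCGC, TTTCGCGC, TTTGCCGC and TTTGGCGC, for the CHR word TTTGAA and for CCAAT. An E2F word was in 8 of 18 replication promoters and in 1 of 19 mitosis promoters (Cdk1), against 2.6% of 27025 genes. TTTGAA was in 14 of 19 mitosis promoters and 3 of 18 replication promoters, against 20.2% of genes. Both TTTGAA and CCAAT were in the same 14 mitosis promoters and in 2 replication promoters, against 7.97% of genes. These are matches of letters, not measured binding sites, and the words are short. Mcm4, Ccna2, Tpx2, Gins2 and Aurkb were not among the promoters used.

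The 120 bases before the start are shown 5′ to 3′ for 6 genes that carry the results below, in lower case with the E2F, TTTGAA and CCAAT words, or their reverse complements, in capitals.
Mcm6 (chr1:128359706-128359825, minus strand): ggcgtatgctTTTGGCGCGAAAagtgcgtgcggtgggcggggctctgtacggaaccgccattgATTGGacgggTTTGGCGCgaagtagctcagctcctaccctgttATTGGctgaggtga
Mcm5 (chr8:75109389-75109508, plus strand): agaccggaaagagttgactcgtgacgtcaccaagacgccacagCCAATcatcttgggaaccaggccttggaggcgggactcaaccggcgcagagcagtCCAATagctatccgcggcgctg
Pcna (chr2:132253181-132253300, minus strand): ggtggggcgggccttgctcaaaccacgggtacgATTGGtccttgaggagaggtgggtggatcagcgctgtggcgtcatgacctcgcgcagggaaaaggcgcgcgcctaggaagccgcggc
Cdc20 (chr4:118437344-118437463, minus strand): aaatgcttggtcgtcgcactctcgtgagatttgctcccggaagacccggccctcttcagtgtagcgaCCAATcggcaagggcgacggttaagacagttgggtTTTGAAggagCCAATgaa
Ube2c (chr2:164769809-164769928, plus strand): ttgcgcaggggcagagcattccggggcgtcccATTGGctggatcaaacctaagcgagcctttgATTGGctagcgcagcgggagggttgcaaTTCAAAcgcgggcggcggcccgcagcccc
Birc5 (chr11:117849117-117849236, plus strand): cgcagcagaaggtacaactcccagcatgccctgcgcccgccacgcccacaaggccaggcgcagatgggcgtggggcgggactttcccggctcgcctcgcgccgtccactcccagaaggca
The Mcm6 stretch holds E2F and CCAAT words and no TTTGAA, and the Cdc20 and Ube2c stretches hold TTTGAA beside CCAAT words and no E2F word. Birc5 holds none of the words in the whole promoter searched, and Pcna holds CCAAT there but no E2F word and no TTTGAA. The E2F word of Mcm5 lies outside the bases shown.

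Among mice, both gene groups were lowest in the OT2 PosSelected mouse. The 20 replication genes summed to 821 (NegSelected), 356 (PosSelected) and 2347 CPM (NoSelection) in OT2 mice and to 1513, 2223 and 1948 CPM in OT1 mice in the same order of hosts. The 22 mitosis genes summed to 175, 86.9 and 1120 CPM in OT2 mice and to 1287, 1666 and 1244 CPM in OT1 mice. The OT2 NoSelection mouse stood above all 3 OT1 mice on replication genes and below them on mitosis genes. The other OT2 mice stood below all 3 OT1 mice on both sums. Single cells weighed on these sums: 1 cell gave 15.0% of the replication and 39.7% of the mitosis UMIs of OT2 NoSelection. The richest cell gave 19.6% and 32.0% in OT2 NegSelected and 1.74% and 4.29% in OT2 PosSelected. In OT1 mice it gave 6.13 to 12.9% and 9.64 to 18.2%. Of all member UMIs, replication genes held 82.5%, 80.4% and 67.7% in the OT2 mice and 54.0%, 57.2% and 61.0% in the OT1 mice, so the mice with the lowest sums also had the smallest mitosis part. With 1 mouse per receptor and host, a difference between 2 mice has no replicate check. A summed level does not tell more cells in cycle from more RNA per cell.

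**Figure D1:**
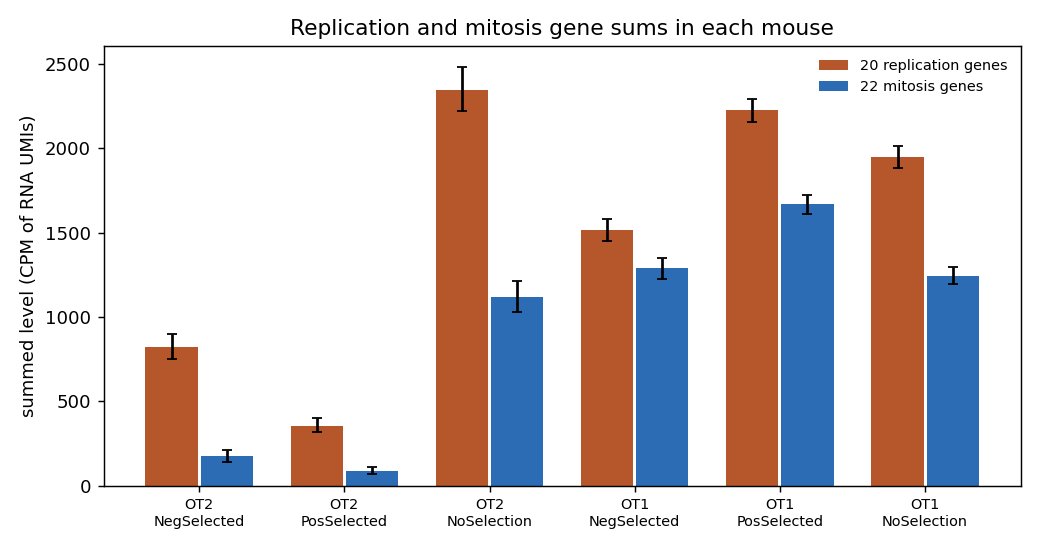
Summed level of the 20 replication genes and the 22 mitosis genes in CPM of RNA UMIs (vertical axis, from 0) in each of the 6 mice (horizontal axis); the bars are single mice and the error lines are exact 95% Poisson intervals, which cover counting error only. The OT2 PosSelected mouse is lowest for both groups, at 356 and 86.9 CPM, while OT2 NoSelection is highest for replication genes, at 2347 CPM, and below the 3 OT1 mice for mitosis genes, at 1120 CPM.

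The Mcm genes encode the hexameric helicase that unwinds DNA at the fork. Mcm6 was at 109, 37.3 and 274 CPM in the OT2 NegSelected, PosSelected and NoSelection mice and at 142, 205 and 198 CPM in the OT1 mice in the same order. Mcm5 was at 42.4, 24.8 and 122 CPM in the OT2 mice and at 64.2, 117 and 90.5 CPM in the OT1 mice. Both were lowest in OT2 PosSelected and highest in OT2 NoSelection, and the OT2 values ran from below to above all OT1 values. Pcna, the sliding clamp that holds the polymerase on DNA, was at 57.7, 27.3 and 129 CPM in the OT2 mice and at 97.9, 136 and 123 CPM in the OT1 mice, with the OT2 NoSelection value among those of OT1.

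Rrm2, the cell-cycle-regulated subunit of ribonucleotide reductase, was at 28.8, 1.24 and 143 CPM in the OT2 NegSelected, PosSelected and NoSelection mice and at 96.3, 179 and 127 CPM in the OT1 mice. Tyms, thymidylate synthase, was at 32.2, 11.2 and 81.8 CPM in the OT2 mice and at 65.8, 92.9 and 77.1 CPM in the OT1 mice. Pclaf, which binds Pcna at replication forks, was at 23.8, 1.24 and 177 CPM in the OT2 mice and at 149, 217 and 174 CPM in the OT1 mice. Rrm2 and Pclaf each had 1 UMI in the OT2 PosSelected mouse, where Mcm6 still had 30. Cdc6, a loader of the helicase, Cdc45, a part of the active helicase, and Tk1, thymidine kinase, had 0 UMIs in that mouse, which puts them at least 7.13-fold, 12.2-fold and 12.7-fold lower than in the OT2 NoSelection mouse (3 counts as the floor in the PosSelected mouse).

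Among mitosis genes, Top2a, the topoisomerase that untangles sister chromatids, was at 32.2, 3.73 and 167 CPM in the OT2 NegSelected, PosSelected and NoSelection mice and at 147, 194 and 153 CPM in the OT1 mice. Mki67, the Ki-67 coat protein of mitotic chromosomes, was at 28.8, 9.93 and 184 CPM in the OT2 mice and at 137, 207 and 162 CPM in the OT1 mice. Both had an OT2 NoSelection value among those of OT1 and the other OT2 values below all of OT1. Cdk1, the mitotic kinase, was at 3.39, 0 and 34.2 CPM in the OT2 mice and at 50.9, 80.1 and 44.4 CPM in the OT1 mice. Its cyclin partner Ccnb1 was at 0, 0 and 13.3 CPM in the OT2 mice and at 29.0, 36.5 and 27.8 CPM in the OT1 mice. Ccnb2, the other B-type cyclin of the list, was at 1.70, 0 and 47.5 CPM in the OT2 mice and at 81.5, 74.7 and 72.3 CPM in the OT1 mice. For these 3 genes every OT2 mouse was below every OT1 mouse. The share of all genes separated in this way was not counted, here or below, so the separation is a description only.

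Cdc20, an activator of the anaphase-promoting complex, was at 5.09, 4.97 and 9.51 CPM in the OT2 NegSelected, PosSelected and NoSelection mice and at 34.5, 46.7 and 40.2 CPM in the OT1 mice. Ube2c, the ubiquitin-conjugating enzyme of that complex, was at 5.09, 4.97 and 78.0 CPM in the OT2 mice and at 119, 189 and 80.3 CPM in the OT1 mice. Every OT2 mouse was again below every OT1 mouse for both, with little room for Ube2c. Plk1, the polo-like kinase of the spindle poles, was at 0, 0 and 30.4 CPM in the OT2 mice and at 28.2, 37.1 and 23.0 CPM in the OT1 mice. Birc5 (survivin), a part of the chromosomal passenger complex, was at 3.39, 1.24 and 66.6 CPM in the OT2 mice and at 101, 108 and 96.9 CPM in the OT1 mice. The OT2 NoSelection mouse was among the OT1 mice for Plk1 and below them for Birc5. The plot of each gene in each mouse shows the other members.

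**Figure D2:**
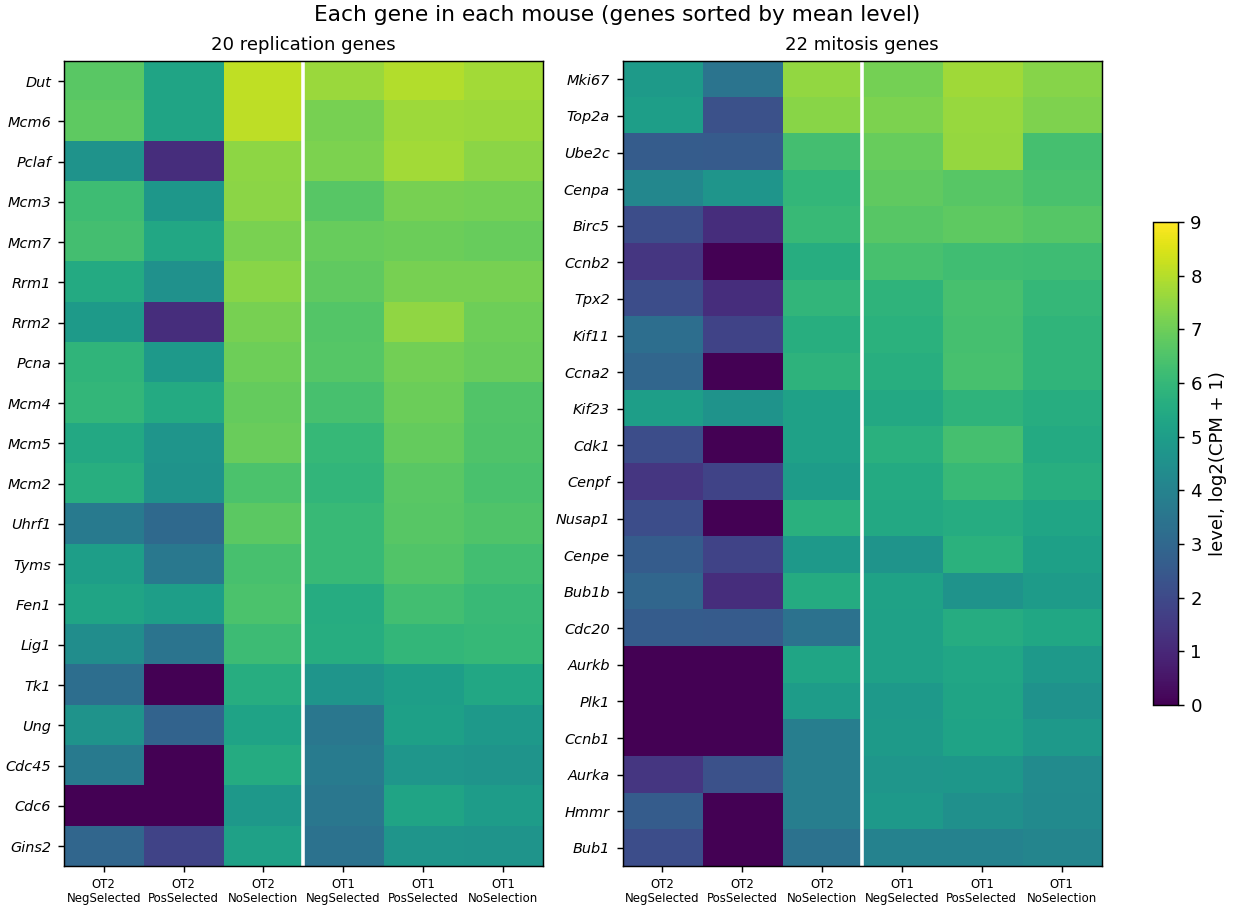
Level of each of the 42 genes as log2(CPM + 1) (colour scale) in each of the 6 mice (columns), with replication genes left, mitosis genes right, and genes sorted by mean level over the mice. The dark cells at 0 are all in the OT2 NegSelected and PosSelected mice, and within the OT2 PosSelected mouse the Mcm genes keep 23.6 to 44.7 CPM.

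PosSelected and NoSelection hosts differ in whether the thymus offers the MHC class that can select the receptor. The fit summed the counts of each mouse and had terms for receptor and host (edgeR quasi-likelihood test, Benjamini-Hochberg threshold 0.05 over 9092 genes), and all 42 members passed its filter. No member was called between PosSelected and NoSelection hosts, where 0.0110% of all genes were called, and 0 members had an unadjusted p under 0.05, against 7.30% of all genes. DESeq2 and limma-voom also called 0. The median log2 fold change was -0.87 over replication genes and -0.53 over mitosis genes, with -0.01 over all genes. The ratio ran opposite ways in the 2 receptors. In OT2 all 42 members were lower in the PosSelected mouse, with a median ratio of 0.139 over replication and 0.0843 over mitosis genes when members at 0 stand at their bound. In OT1, 18 of 20 replication and 20 of 22 mitosis genes were higher in the PosSelected mouse, with median ratios of 1.12 and 1.29. The additive fit averaged these opposite differences. Without the OT1 NoSelection mouse 24 members were called, where 2.72% of all genes were, and without the OT1 PosSelected mouse 15, where 1.77% were; in these fits 1 of the 2 hosts was represented by OT2 only. Over all settings tried the median ran from -2.49 to 0.11 for replication genes (above 0 in 1 of 15) and from -4.74 to 3.67 for mitosis genes (above 0 in 6 of 16).

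The RIPmOVA host carries ovalbumin, the antigen that both receptors recognise, and the wild-type PosSelected host does not. Between NegSelected and PosSelected hosts 0 members were called (0 of all genes) and 0 had an unadjusted p under 0.05 (4.60% of all genes), by edgeR; DESeq2 and limma-voom called 0 as well. The medians were -0.20 for replication and -0.22 for mitosis genes; they were above 0 in 3 of 15 and 2 of 16 settings, at up to 1.69 and 3.92. In OT2, all 17 replication genes with a UMI in the PosSelected mouse were higher in the NegSelected mouse (median ratio 2.11), as were 10 of 13 mitosis genes (median ratio 2.05). In OT1 all 20 replication genes were lower in the NegSelected mouse (median ratio 0.675), and 18 of 22 mitosis genes were (median ratio 0.76). Between NegSelected and NoSelection hosts 0 members were called (0 of all genes) by edgeR, and also by DESeq2 and limma-voom. There 3 replication genes had an unadjusted p under 0.05, against 2.60% of all genes: Gins2, a subunit of the replicative helicase (log2 fold change -1.77, SE 0.72), Cdc6 (-2.29, SE 0.98) and Fen1, the flap endonuclease of Okazaki fragments (-0.82, SE 0.35). Without the OT1 NoSelection mouse 21 members were called in that comparison, where 0.854% of all genes were.

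Between OT2 and OT1 mice 1 member passed the threshold. Cdc20 was lower in OT2 mice (log2 fold change -2.70, SE 0.34, edgeR adjusted p = 0.012), in 3 of 3 hosts. It was the 1 member called, where 1.07% of all genes were called. All 20 replication genes and all 22 mitosis genes had a fold change below 0, with medians of -0.85 and -2.01, against 0.01 over all genes. An unadjusted p under 0.05 was found for 25 members, 7 of replication and 18 of mitosis, all lower in OT2; of all genes 13.3% had one, and 6.24% had one and were lower in OT2. Those with the lowest p after Cdc20 were Cenpa, the centromeric histone H3 (-1.62, SE 0.36), Cenpf, a kinetochore protein (-2.47, SE 0.61), and Ccnb1 (-3.09, SE 0.79). The number called rested on single mice: 35 members were called without the OT1 NoSelection mouse, where 5.09% of all genes were, 37 without the OT2 NoSelection mouse (6.62% of all genes), 4 without OT2 PosSelected (2.52%), and 0 without OT2 NegSelected or without OT1 NegSelected (0.261% and 0.275%). In CD4-CD8- cells alone 0 were called, where 0.384% of all genes were. The NoSelection hosts of OT1 and OT2 lacked different genes, so host genotype and receptor cannot be told apart there. Depth per cell also moved with the receptor, and its part was not tested.

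Marker lists of T lineages moved with these mice too. The gamma delta T list (Sox13, Trdc and others, 7 of 7 genes found) summed to 489, 374 and 1209 CPM in the OT2 NegSelected, PosSelected and NoSelection mice and to 2359, 877 and 2410 CPM in the OT1 mice. Preselection markers (Rag1, Rag2 and others, 5 of 5) summed to 674, 225 and 1289 CPM in the OT2 mice and to 512, 280 and 650 CPM in the OT1 mice. The OT2 PosSelected mouse, lowest in both lists and in the cycle genes, was highest in mature single-positive markers (Klf2, S1pr1 and others, 5 of 5), at 1768 CPM, against 825 to 1435 CPM in the other 5 mice. The part of these cell types in the host and receptor differences was not tested.

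Other genes of the same pathways, from lists drawn up with earlier results known, gave 0 calls in the host and receptor fits. Against OT1, OT2 mice had an unadjusted p under 0.05 with a lower level for 12 of 46 other replication genes (median -0.73; lowest p for Dnmt1, the maintenance methyltransferase, and Asf1b, a histone chaperone) and for 30 of 45 tested other mitosis genes (median -1.55; lowest p for the phosphatase gene Cdc25b and the kinesin gene Kif15). G1 drivers (7 tested) had 2 higher and 2 lower, inhibitors and quiescence genes (10 tested) 2 higher, and E2F, DREAM and FoxM1-Myb regulators (17 tested) 2 higher and 2 lower. Of all genes 13.3% had such a p by edgeR in either direction, and 6.24% had one and were lower in OT2.

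Member transcripts were held by few cells. The 67 cells richest in them, 5% of all, held 73.7% of replication UMIs and, counted separately, 86.1% of mitosis UMIs. No replication UMI was seen in 331 cells (24.9%) and no mitosis UMI in 868 cells (65.2%). After thinning, which left out 71 cells below 1500 UMIs (46 of OT2 and 25 of OT1 mice), a cell was called positive for a group at 3 or more of its UMIs. This gave 57 cells positive for replication only, 62 for both, 15 for mitosis only and 1126 for neither. Near the limit, 108 cells had 2 replication UMIs and 25 had 3, and 22 cells had 2 mitosis UMIs and 11 had 3, so the replication class has the less sharp edge.

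**Figure D3:**
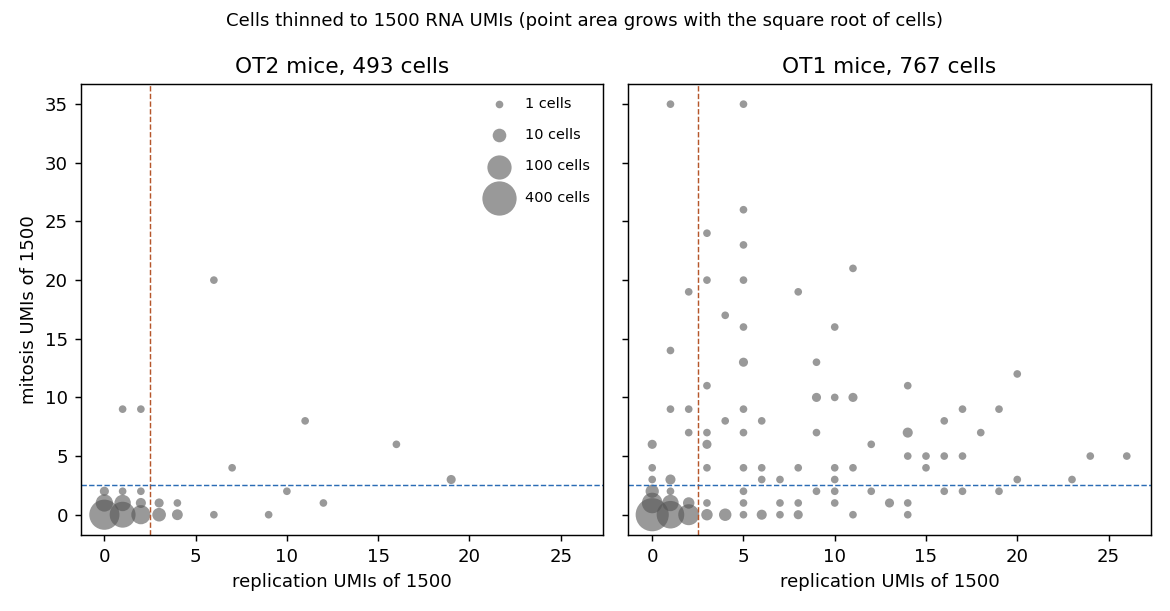
Replication UMIs (horizontal axis) and mitosis UMIs (vertical axis) of each cell after thinning to 1500 RNA UMIs, for OT2 mice (left, 493 cells) and OT1 mice (right, 767 cells); point area grows with the square root of the number of cells, and the dashed lines mark the limit of 3 UMIs. Most cells lie in the corner at 0 to 2 of each, and cells above the mitosis line are mainly in the OT1 panel, where counts reach 26 replication and 35 mitosis UMIs.

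The classes differed in which members they held, as their definition requires, and the values are a description. Mcm6 was at 630 CPM in replication-only cells, 487 in cells with both, 59.3 in mitosis-only cells and 54.8 in cells with neither. Ung, the uracil glycosylase, was at 137, 45.1, 7.42 and 6.68 CPM in the same order of classes and, of the 42 genes, had the highest ratio of replication-only cells to cells with both. Rrm2 was at 224, 640, 14.8 and 1.18 CPM and Top2a at 145, 779, 267 and 7.67 CPM, both highest in cells with both. Ccnb2 was at 65.5, 239, 660 and 7.08 CPM and Cenpa at 62.3, 272, 816 and 23.6 CPM, both highest in mitosis-only cells. In all, 9 of 22 mitosis genes and 0 of 20 replication genes were higher in mitosis-only cells than in cells with both.

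Cells with neither class held some replication transcripts, as the class limit allows. In them 10 of 20 replication genes were at 10 CPM or more, led by Mcm6, Mcm7 (51.9 CPM), Dut, the dUTPase (49.3 CPM), and Mcm4 (38.3 CPM), against 2 of 22 mitosis genes, Kif23 (33.0 CPM), a kinesin of cytokinesis, and Cenpa. Cdc6 was at 0, Cdk1 at 0.197 and Plk1 at 0.393 CPM in these cells. The classes were cut on these same UMIs, and the limit admits cells with a few UMIs of each group to this class. The levels are therefore a description and cannot test for residual expression outside the cycle. The part of free RNA in the droplets in this low level was not tested. The level of Mcm6 in cells with neither, 54.8 CPM, was above the 37.3 CPM of the whole OT2 PosSelected mouse.

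Replication- or mitosis-positive cells were 10 of 156 cells in the OT2 NegSelected mouse (6.41%, exact Clopper-Pearson 95% interval 3.12 to 11.5%), 5 of 240 in OT2 PosSelected (2.08%, 0.68 to 4.79%) and 14 of 97 in OT2 NoSelection (14.4%, 8.12 to 23.0%). They were 24 of 199 cells in the OT1 NegSelected mouse (12.1%, 7.88 to 17.4%), 43 of 270 in OT1 PosSelected (15.9%, 11.8 to 20.8%) and 38 of 298 in OT1 NoSelection (12.8%, 9.18 to 17.1%). The intervals of OT2 PosSelected and of the other mice do not overlap, except that of OT2 NegSelected; they cover counting error only. Mitosis-positive cells were 2 of 156 (1.28%), 0 of 240, which by a floor of 3 cells allows a share of up to 1.25% (exact upper limit 1.53%), and 6 of 97 (6.19%) in the OT2 mice and 8.54%, 9.63% and 8.72% in the OT1 mice. All 5 positive cells of the OT2 PosSelected mouse were positive for replication only. Without thinning, replication-positive cells were 18.1%, 12.2% and 32.4% of the OT2 mice, against 33.0 to 39.4% of the OT1 mice, and the OT2 PosSelected mouse was lowest for both classes with thinning to 1000, 1500 or 2500 UMIs and at a minimum of 2, 3 or 5 UMIs.

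Positive cells were rich in RNA before thinning. The median was 10052 RNA UMIs in replication-only, 15161 in cells with both and 9050 in mitosis-only cells, against 3962 in cells with neither, and 59.7% of cells with both lay above the 95th percentile of UMIs per cell (12147), against 0.622% of cells with neither. Doublets were not called here, and their part was not tested. Without the cells above that percentile, replication-positive shares were 5.16%, 2.08% and 6.74% in the OT2 mice and 4.43% to 7.97% in the OT1 mice. On this class the OT2 PosSelected mouse thus stayed lowest, and OT2 NegSelected then lay within the range of OT1. Mitosis-positive shares without those cells were 1.29%, 0% and 1.12% in the OT2 mice and 4.06% to 5.98% in the OT1 mice. Every OT2 mouse thus stayed below every OT1 mouse on the mitosis class in this setting. With thinning to 2500 UMIs the order did not hold: OT2 NoSelection was at 11.6%, above the lowest OT1 mouse at 9.68%.

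Surface CD4 and CD8A antibodies placed the cells in gates, which were not read as stages. In CD4-CD8- cells of OT1 NegSelected, PosSelected and NoSelection mice, mature single-positive markers summed to 1601, 1079 and 1601 CPM. Early double-negative markers (Kit, Il2ra and others) summed to 94.1, 56.6 and 72.5 CPM there. Preselection markers summed to 548, 435 and 689 CPM there, against 450, 80.4 and 264 CPM in CD4+CD8+ cells. In OT2 mice they were higher in CD4+CD8+ cells, at 1333, 952 and 5093 against 688, 319 and 599 CPM. The gates came from a mixture model of log2(antibody UMIs + 1), with thresholds of 82.7 UMIs for CD4 and 52.9 for CD8A; 112 and 170 cells lay within 0.5 log2 units of them. Cells with few antibody UMIs fall into the double-negative gate on that scale: in OT2 mice its median was 1141 antibody UMIs per cell. Shares of positive cells and calls by gate are therefore also given with gates on centred log-ratios, a scale chosen after seeing the data, on which 76.0% of cells kept their gate.

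With the 6 mice added up, CD4-CD8+ cells had the highest share of positive cells and CD4+CD8- cells the lowest. Positive cells were 39 of 200 CD4-CD8+ cells (19.5%, 14.2 to 25.7%), 81 of 698 CD4-CD8- cells (11.6%, 9.32 to 14.2%), 6 of 215 CD4+CD8- cells (2.79%, 1.03 to 5.97%) and 8 of 147 CD4+CD8+ cells (5.44%, 2.38 to 10.4%). On centred log-ratios these shares were 26.3%, 10.8%, 2.47% and 8.06%, in the same order of gates. Mitosis-positive cells were 0 of 215 CD4+CD8- cells, which by the same floor allows up to 1.4% (exact upper limit 1.7%), and 1 of 283 on centred log-ratios. These shares add up cells of 6 mice that differ in the gates they fill, since the OT2 PosSelected mouse gave 138 of the 219 CD4+CD8- cells. Mouse by mouse the order was another: the share of CD4-CD8+ cells was the highest of the 4 gates in 1 of 6 mice, OT1 NoSelection (42.4%), that of CD4-CD8- cells in 3 and that of CD4+CD8+ cells in 2, and that of CD4+CD8- cells was the lowest or tied for it in 4. Several of these gates held 30 cells or fewer.

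The order of the gates was not the same in both receptors. In OT2 mice positive cells were 9.66% of CD4-CD8-, 2.92% of CD4+CD8-, 7.69% of CD4-CD8+ and 3.19% of CD4+CD8+ cells, and in OT1 mice 12.3%, 2.27%, 23.6% and 9.43% in the same order. On centred log-ratios they were 17.2%, 2.27%, 8.33% and 4.0% in OT2 mice and 9.51%, 3.17%, 30.7% and 13% in OT1 mice. On the first scale the OT2 intervals overlap (5.73 to 15.0%, 0.956 to 6.69%, 2.14 to 18.5% and 0.663 to 9.04% in the order given). On centred log-ratios the OT2 interval of CD4-CD8- cells was 9.98 to 26.8%. It lies above those of CD4+CD8- (0.742 to 5.22%) and CD4+CD8+ cells (1.48 to 8.5%) and overlaps that of CD4-CD8+ cells (1.75 to 22.5%). With the 3 mice of a receptor added up, CD4-CD8- cells stood above CD4-CD8+ cells in OT2 and below them in OT1 on both scales. Which receptor had the larger share of positive CD4-CD8- cells thus depended on the scale. Single mice did not all follow (gate sizes here are before thinning). In OT1 PosSelected, on the first scale, 25 positive cells were in 138 CD4-CD8- cells and 15 in 87 CD4-CD8+ cells. In OT2 NoSelection, on centred log-ratios, 9 were in 48 and 1 in 4. In the OT2 PosSelected mouse 0 of its CD4-CD8- cells were positive on both scales.

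**Figure D4:**
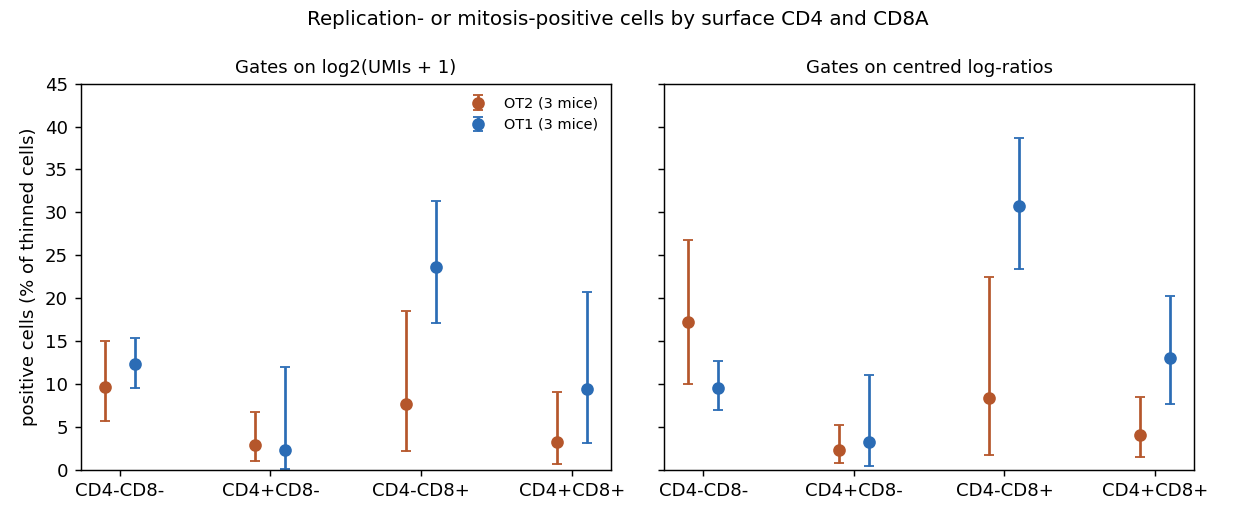
Share of thinned cells positive for replication or mitosis genes (vertical axis, percent, from 0) by CD4 and CD8A gate (horizontal axis), with gates on log2(UMIs + 1) at left and on centred log-ratios at right; points are 3 mice of a receptor added up and lines are exact Clopper-Pearson 95% intervals for counting error. OT1 CD4-CD8+ cells are highest in both panels, at 23.6% and 30.7%, and CD4+CD8- cells are at 3.17% or less in both receptors.

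Gates were compared within mice (counts summed per mouse and gate with at least 10 cells, mouse as a block, edgeR quasi-likelihood test over 3839 genes). There were 21 such profiles; the OT1 NoSelection CD4+CD8+ (9 cells), OT2 NoSelection CD4+CD8- (7) and OT2 PosSelected CD4-CD8+ profiles (9) were not in the fit. The filter on low counts passed 27 of the 42 members, and members at 0 in 1 gate passed through the other, so their number is not read as support.

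In CD4-CD8- cells Mcm6 was at 161, 36.9 and 341 CPM in the OT2 NegSelected, PosSelected and NoSelection mice and at 123, 266 and 177 CPM in the OT1 mice. In CD4+CD8+ cells it was at 50.4, 49.3 and 48.8 CPM in the OT2 mice and at 163 and 24.7 CPM in OT1 NegSelected and PosSelected mice. Mcm6 was higher in CD4-CD8- cells (log2 fold change 1.46, SE 0.41, edgeR adjusted p = 0.0395), in 3 of the 5 mice with both gates. It was the 1 member called, where 4.43% of all genes were called, and 4 members had an unadjusted p under 0.05, against 16.9% of all genes, so the share of members called was near that of all genes. No member was called without OT1 PosSelected or without OT2 NegSelected, nor by limma-voom, and 4 were called without OT1 NegSelected, where 3.81% of all genes were. On centred log-ratios Mcm6 was not called, and 2 members were, Ube2c and Cenpf, both lower (11.1% of all genes called).

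CD4+CD8- cells held few mitosis transcripts, most of them from Cenpa and Kif23. Over the 6 mice, CD4+CD8- cells had 65 mitosis UMIs in 743149 RNA UMIs, 23 of Cenpa (30.9 CPM, against 61.9 CPM in CD4+CD8+ cells) and 22 of Kif23 (29.6 against 45 CPM). They had 2 UMIs of Ube2c, 2 of Top2a, 4 of Mki67 and 0 of Birc5, Cenpf and Cdk1, and of the replication genes Rrm2 and Pclaf also 0. In CD4+CD8+ cells Ube2c was at 0 CPM in all 3 OT2 mice and at 413, 452 and 33.0 CPM in the OT1 NegSelected, PosSelected and NoSelection mice. Ube2c (adjusted p = 0.0136), Cenpf and Birc5 (adjusted p = 0.0474 each, edgeR) were called lower in CD4+CD8- cells, 3 members where 5.37% of all genes were called; 12 members had an unadjusted p under 0.05, against 16.9% of all genes. In OT1 mice added up, Birc5 was at least 9.51-fold and Cenpf at least 6.34-fold lower than in CD4+CD8+ cells, with 3 counts over the gate as the floor. No fold is given for OT2 mice, where both genes had 0 UMIs in both gates. The OT1 counts came from few cells: 1 cell gave 73.2% of the mitosis UMIs of OT1 NegSelected CD4+CD8+ cells. The calls were lost (0 members) without OT1 NegSelected, without OT1 PosSelected or without OT2 NegSelected, and there was 1 without OT2 PosSelected (1.58% of all genes called) and 5 without OT2 NoSelection (4.16%). DESeq2 and limma-voom called 0 members, where 6.28% and 4.25% of all genes were called. With gate thresholds raised by 0.5 log2 units the fold changes of Ube2c (3.75) and Birc5 (0.53) turned positive. There 0 members were called, against 5.46% of all genes.

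The replication genes were not gone from CD4+CD8- cells. Mcm6 was at 53.8 CPM there, against 60.0 CPM in CD4+CD8+ cells, over 6 mice, and Pcna at 43.1 against 82.5 CPM. With the 6 mice added up, the 20 genes summed to 462 CPM in CD4+CD8- cells, against 951 CPM in CD4+CD8+ cells. The 22 mitosis genes summed to 87.5 against 1135 CPM. The replication sum was lower in CD4+CD8- cells only in OT1 NegSelected (332 against 3628 CPM) and OT2 PosSelected (355 against 443 CPM). It was higher in OT1 PosSelected (843 against 582 CPM) and OT1 NoSelection (872 against 396 CPM). In OT2 NegSelected it was 398 against 375 CPM and in OT2 NoSelection 541 against 521 CPM. In OT1 NegSelected 1 cell gave 47.9% of the replication UMIs of CD4+CD8+ cells. The mitosis sum of CD4+CD8+ cells came mainly from 2 mice: in OT1 NegSelected and PosSelected it was 133 and 120 CPM in CD4+CD8- cells, against 3503 and 1881 CPM in CD4+CD8+ cells. In OT2 NegSelected, PosSelected and NoSelection it was 53.1, 91.8 and 31.8 CPM in CD4+CD8- cells, against 43.2, 49.3 and 146 CPM in CD4+CD8+ cells, and in OT1 NoSelection 62.3 against 99.1 CPM. Replication genes held 87.0% of member UMIs in CD4+CD8- cells of OT1 mice, against 40.3% in their CD4+CD8+ cells, and 82.3% in CD4+CD8- cells of OT2 mice, against 86.0% in their CD4+CD8+ cells. On centred log-ratios 10 members were called lower in CD4+CD8- cells, where 8.81% of all genes were called: Pclaf, Rrm2 and Uhrf1, which reads hemimethylated DNA behind the fork, and 7 mitosis genes led by Ube2c, Cenpf and Kif11, a spindle kinesin. No Mcm gene was among them.

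In CD4-CD8+ cells of the 6 mice added up, the 2 groups summed to 2266 and 1888 CPM, the highest of the 4 gates. In single mice this gate was highest for replication genes in both NoSelection mice (2955 CPM in OT2 and 4115 CPM in OT1) and for mitosis genes in OT1 NoSelection (4244 CPM). Mcm6 was at 132 and 198 CPM in the OT2 NegSelected and NoSelection mice and at 235, 158 and 338 CPM in the OT1 NegSelected, PosSelected and NoSelection mice, above its CD4+CD8+ level in all 4 mice with both gates in the fit. No member was called against CD4+CD8+ cells by edgeR, DESeq2 or limma-voom (0.313% of all genes called by edgeR). An unadjusted p under 0.05 was found for 5 replication genes, against 12.2% of all genes: Mcm6 (log2 fold change 1.54, SE 0.43), Mcm5 (1.89, SE 0.57), Mcm3 (1.56, SE 0.53), Lig1, the ligase of Okazaki fragments (1.53, SE 0.69), and Dut (1.04, SE 0.48). On centred log-ratios Mcm5 (1.67, SE 0.45, edgeR adjusted p = 0.04) and Mcm3 (1.47, SE 0.40, adjusted p = 0.0405) were called higher, where 3.38% of all genes were called. Without OT1 NegSelected 3 members were called on the main gates, where 0.690% of all genes were. In the OT2 NoSelection mouse 1 cell gave 86.6% of the replication UMIs of this gate.

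Whether the CD4-CD8- to CD4+CD8+ difference itself differed between OT2 and OT1 was tested as an interaction. No member was called by edgeR, DESeq2 or limma-voom (0 of all genes by edgeR), and 9 members had an unadjusted p under 0.05, against 10.7% of all genes. All 9 were above 0, which means a larger excess of CD4-CD8- cells in OT2; they were led by Ube2c (8.26, SE 2.10) and Top2a (5.36, SE 1.64). Ube2c, Birc5 and Cenpf, which are among the 9, had 0 UMIs in CD4+CD8+ cells of all 3 OT2 mice, so the size of their fitted difference depends on the prior count. Without OT1 PosSelected 9 members were called, where 1.28% of all genes were. On centred log-ratios 0 members were called, with 10 at an unadjusted p under 0.05.

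Genes that set the pace of the cycle showed gate differences of their own. In CD4-CD8- against CD4+CD8+ cells the G1 kinase gene Cdk6 (log2 fold change 2.32, SE 0.45, adjusted p = 0.00244 by edgeR) and Myc (1.73, SE 0.43, adjusted p = 0.0201) were higher, 2 of 6 G1 drivers tested, where 4.43% of all genes were called in either direction. Klf2, a quiescence factor of mature T cells that is also on the mature single-positive marker list, was higher in CD4-CD8- cells (1.94, SE 0.48, adjusted p = 0.021) and in CD4+CD8- cells (2.34, SE 0.51, adjusted p = 0.00787). Ccng2, a cyclin of resting cells, was lower in CD4-CD8- cells (-1.07, SE 0.25, adjusted p = 0.0116). In CD4+CD8- cells the quiescence transcription factor gene Foxo1 (1.78, SE 0.38, adjusted p = 0.00629) and the cyclin D2 gene Ccnd2 (2.19, SE 0.63, adjusted p = 0.0428) were higher. Of 8 inhibitor and quiescence genes tested, 1 was thus called higher and 1 lower in CD4-CD8- cells and 2 were called higher in CD4+CD8- cells, and of 6 G1 drivers 1 in CD4+CD8- cells, where 5.37% of all genes were called. None of the 16 other replication, 10 other mitosis and 3 regulator genes tested was called by edgeR in the 3 gate comparisons. At an unadjusted p under 0.05, 2 other replication genes were higher in CD4-CD8- cells and 2 in CD4-CD8+ cells. In CD4+CD8- cells 2 other replication, 3 other mitosis and 1 regulator gene were lower at that p. Of all genes 16.9%, 12.2% and 16.9% had such a p in CD4-CD8-, CD4-CD8+ and CD4+CD8- cells. On centred log-ratios Cks2, Knl1 and Incenp of the other mitosis genes were called lower in CD4+CD8- cells and Rb1 (-0.80) in CD4-CD8- cells. On that scale the calls above held, Ccnd2 (1.44) was also called higher and Ccnd3 (-0.66), Cdkn2d (-0.87) and Btg1 (-0.76) lower in CD4-CD8- cells, and Btg1 (0.81) was called higher in CD4+CD8- cells. In CD4-CD8+ cells Myc (1.55), Ccnd2 (1.89) and Klf2 (2.20) were called higher and Cdkn2d (-1.06) lower on centred log-ratios, against none on the main gates.

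Surface antibodies were a readout the classes did not use. Antibody counts were summed over positive and negative cells of a mouse and compared within mice (edgeR quasi-likelihood test, 115 antibodies), and 4 were called, 3.48%. The OT2 PosSelected mouse, with 5 positive cells, was not in the fit, so the values are of 5 mice. They are in CPM of antibody UMIs, so a higher value is a larger share of a cell's antibody reads.

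CD25, the IL-2 receptor alpha chain found on double-negative thymocytes and on regulatory T cells, was at 15811 and 7343 CPM in positive cells of the OT2 NegSelected and NoSelection mice, against 1167 and 1103 CPM in their negative cells. In OT1 NegSelected, PosSelected and NoSelection mice it was at 983, 1359 and 1201 CPM in positive cells, against 450, 352 and 326 CPM in negative cells. It was higher in positive cells of 5 of 5 mice (log2 fold change 2.29, SE 0.36, edgeR adjusted p = 0.024), with larger values in both OT2 mice. Neuropilin 1 (CD304), a receptor for semaphorins and VEGF, was at 5161 and 19987 CPM in positive cells of the OT2 NegSelected and NoSelection mice, against 3339 and 4493 CPM in negative cells. In the OT1 mice it was at 6153, 7502 and 8978 CPM in positive and 3079, 2942 and 2430 CPM in negative cells. It was higher in 5 of 5 mice (1.40, SE 0.26, edgeR adjusted p = 0.0322). Among the 5 mice of the fit it alone of the 4 had positive cells of every mouse above negative cells of every mouse. The share of all antibodies tested that did so was not counted.

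CD29, the integrin beta 1 chain, was at 8602 and 9476 CPM in positive cells of the OT2 NegSelected and NoSelection mice, against 3591 and 4740 CPM in negative cells, and at 6493, 4684 and 5674 CPM against 3804, 2987 and 3124 CPM in the OT1 NegSelected, PosSelected and NoSelection mice. It was higher in 5 of 5 mice (0.90, SE 0.12, edgeR adjusted p = 0.0215). CD4 was lower in 5 of 5 mice (-0.98, SE 0.18, adjusted p = 0.0322), at 9974 and 17001 CPM in positive against 25482 and 33662 CPM in negative cells of the OT2 mice and 5301, 7702 and 3374 CPM against 8408, 15252 and 6138 CPM in the OT1 mice. The 5 positive cells of OT2 PosSelected, outside the fit, went the other way for CD4 (46269 against 42330 CPM) and for neuropilin 1 (2748 against 2806 CPM) and had CD25 at 640 against 435 CPM.

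**Figure D5:**
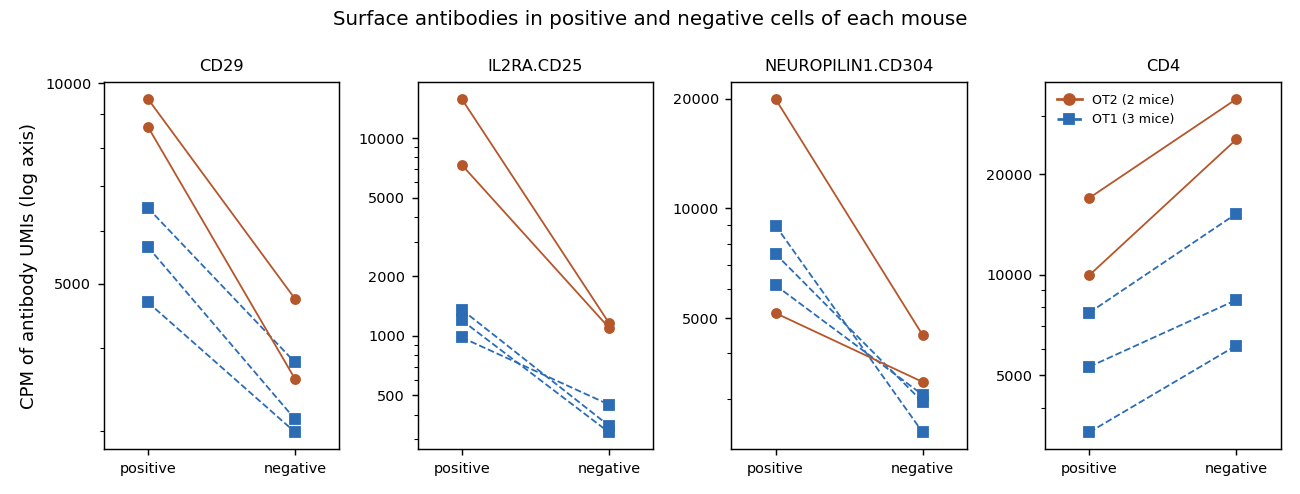
Level of the 4 antibodies called, in CPM of antibody UMIs (vertical log axis, 1 scale per panel), in positive cells (left of each panel) and negative cells (right) of 5 mice, with a line per mouse. CD29, CD25 and neuropilin 1 (CD304) are higher and CD4 is lower in positive cells of all 5 mice, with CD25 of the OT2 mice at 15811 and 7343 CPM.

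Other stage markers did not pass. CD24, high on immature thymocytes, was higher in 4 of 5 mice (log2 fold change 0.72, SE 0.23, adjusted p = 0.184 by edgeR) and CD5, a gauge of receptor signalling, was lower in 5 of 5 (-0.57, SE 0.16, adjusted p = 0.144). CD8A (0.25, SE 0.57), CD69 (0.14, SE 0.15) and the gamma delta receptor antibody (-0.06, SE 0.17) did not pass either, at adjusted p = 0.948, 0.762 and 0.948. In RNA, early double-negative markers (Kit, Il2ra and others) summed to 102 CPM in replication-only cells, 38.1 in cells with both, 29.7 in mitosis-only cells and 78.2 in cells with neither. Gamma delta T markers were at 1573, 854, 1202 and 1639 CPM in the same order, mature single-positive markers at 806, 431, 1246 and 1569 CPM, and preselection markers at 635, 627, 631 and 473 CPM. The 4 antibody calls were lost without the cells above the 95th percentile of RNA UMIs, with a class minimum of 2 UMIs, and without the OT1 NoSelection or the OT2 NoSelection mouse (0 called in each), and CD25 alone was called without OT1 NegSelected. With thinning to 2500 UMIs the 1 antibody called was CD38 and the 4 were lost. CD4 was lost with mouse and gate as the block and at a minimum of 5 UMIs, and CD4 and neuropilin 1 without OT1 PosSelected. The gates are set by the CD4 and CD8A counts, so a block on gate removes CD4 differences between gates by construction.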

How the data were processed

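Single cells of 6 mouse thymi were measured by 10x Genomics 5' v2 RNA sequencing with TotalSeq-C antibodies. The deposited matrices hold raw UMI counts per gene or antibody and cell; Seurat, Cell Ranger 8.0.1 and the build mm10 are named in the submitters' processing notes. Their filters and the treatment of hashtags and doublets are not given in the sources used here; the lowest number of genes in a cell was 506, and the highest mitochondrial share of UMIs was 9.94%. RNA counts per mouse were 525843 to 1867488.

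The member genes, the other lists and the gate settings were chosen with earlier results of these data known. Counts were summed per mouse (terms receptor and host, 2 residual degrees of freedom), per mouse and gate (at least 10 cells, mouse as a term) or per mouse and class, and fitted over all features with edgeR 4.0.16 in R 4.3.3 (TMM, filterByExpr, quasi-likelihood test, Benjamini-Hochberg threshold 0.05). SE is that of the fitted log2 fold change. Each receptor and host is 1 mouse, so these p-values measure the spread left after additive terms. Cells were thinned to 1500 UMIs. Gates came from 2-component Gaussian mixtures (scikit-learn 1.9.0). Intervals (scipy 1.17.1) are exact Poisson or Clopper-Pearson at 95%, and they and the floor of 3 counts cover counting error only. Of the comparisons, PosSelected against NoSelection and CD4-CD8- against CD4+CD8+ were tested on simulated counts with 4-fold changes. The simulation had 1 dispersion for all genes and no mouse effect. The interaction and antibody fits were not simulated. Alternatives were DESeq2 1.42.0, limma-voom (limma 3.58.1), other size factors, filters, depths, minimums, gates and left-out mice. The text names 15 anchor genes and, per comparison, up to 4 called genes of each group with the lowest p. CD71 had no count and CD98 was not found in the panel.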

Additional observations from a re-analysis of the deposited data

Results flagged for a closer look

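The summed levels of both gene groups moved in opposite directions in the 2 receptors for a pair of host comparisons. With 1 mouse per receptor and host, none of these differences between receptors was tested.

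For the 20 replication genes, the PosSelected over NoSelection ratio was 0.152 in OT2 and 1.14 in OT1, and the NegSelected over PosSelected ratio was 2.3 in OT2 and 0.681 in OT1. For the 22 mitosis genes, the PosSelected over NoSelection ratio was 0.0776 in OT2 and 1.34 in OT1. Their NegSelected over PosSelected ratio was 2.01 in OT2 and 0.773 in OT1. In OT2 NoSelection 1 cell gave 39.7% of the mitosis UMIs, and in OT2 NegSelected 1 cell gave 32.0%. The OT2 PosSelected mouse enters each of the 4 OT2 ratios, as the numerator or the denominator, so they are not independent of each other. That mouse also had the highest mature single-positive marker sum, 1768 CPM, and 138 of its 254 cells in the CD4+CD8- gate; the part of this makeup in the ratios was not tested.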

How the results depend on the processing

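Member calls were few and moved with the settings; where no value below shows the cause, the cause was not tested. Without the filter on low counts, members called of 42 were 11 (PosSelected against NoSelection, 1.46% of all genes called), 8 (NegSelected against NoSelection, 0.282%), 36 (OT2 against OT1, 3.08%), 5, 16 and 3 (CD4-CD8-, CD4+CD8- and CD4-CD8+ against CD4+CD8+, 1.80%, 1.53% and 0.575%) and 8 (interaction, 0.324%). OT2 against OT1 gave 3 with DESeq2 (0.913%), 10 without cells above the 95th percentile of RNA UMIs (1.91% of all genes) and 0 in CD4-CD8- cells alone (0.384%). PosSelected against NoSelection gave 1 without those RNA-rich cells (0.458%). CD4-CD8- cells gave 0 with limma-voom (5.91%), without the mouse as a block (4.98%) or without RNA-rich cells (6.00%, 14 members tested). They gave 6 with raised gate thresholds (4.57% of all genes), 3 with profiles of at least 20 cells (2.5%) and 2 on centred log-ratios (11.1%). CD4+CD8- cells gave 0 with DESeq2 (6.28%), limma-voom (4.25%), raised (5.46%) or lowered thresholds (2.23%) or at least 20 cells (1.54%). They gave 5 without the mouse block (7.01%), 1 without RNA-rich cells (6.98%) and 10 on centred log-ratios (8.81%). With raised thresholds Ube2c and Birc5 turned to log2 fold changes of 3.75 and 0.53. CD4-CD8+ cells gave 2 with lowered thresholds (1.47%) or centred log-ratios (3.38%) and 1 with at least 20 cells (0.131%) or without RNA-rich cells (0.887%). Antibodies called were 15 with DESeq2, 9 with mouse and gate as the block, 8 and 1 with thinning to 1000 and 2500 UMIs, and 0 at a minimum of 2 UMIs or without RNA-rich cells.

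Leaving out each mouse in turn gave 0 to 24 members (PosSelected against NoSelection), 0 to 21 (NegSelected against NoSelection), 0 to 37 (OT2 against OT1), 0 to 4 (CD4-CD8-), 0 to 5 (CD4+CD8-), 0 to 3 (CD4-CD8+), 0 to 9 (interaction) and 0 to 5 antibodies. The median log2 fold change of OT2 against OT1 was below 0 in all 15 settings for replication (-1.88 to -0.24) and all 16 for mitosis genes (-7.93 to -0.92). That of NegSelected against NoSelection was above 0 in 1 of 15 (-2.04 to 0.10) and 3 of 16 (-3.78 to 3.57). Fits in CD4+CD8+ cells alone tested 1 member, and 1 was called there in OT2 against OT1, where 10.6% of all genes were called. No paired analysis was possible because each receptor and host had 1 mouse, so no replicate numbers could pair them; gates and antibody classes were compared within mice. In the OT2 PosSelected mouse 9 of 22 mitosis genes and 3 of 20 replication genes had 0 UMIs. The part of depth in this was not tested.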
